A study of Mus musculus with 4 samples.

Results

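Of 36358 autosomal distal peaks of open chromatin that were shared by hypoxia- and normoxia-cultured mesenchymal stem cells (MSCs) and had a mean signal of at least 20, 973 (2.68%) had no more than 0.5 times as much signal in normoxia as in hypoxia whichever libraries were set against each other. These 973 sites are called normoxia-reduced peaks here. They were selected on the measured signal itself: a peak had to be assigned to both oxygen groups by the study's peak caller, lie over 1 kb from the start of every protein-coding transcript of GENCODE M21, reach a mean of 20 over the 4 libraries, and have its higher normoxia value at or under 0.5 times its lower hypoxia value, with the values as deposited. The other 35385 distal peaks met every criterion except the last and are called comparison peaks. The complete table held 128055 peaks, of which 100626 were autosomal, shared and distal.

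The cells were bone MSCs of wild-type C57BL/6N mice aged 3 to 5 months, without further alleles or agents. Both groups were grown from bone in low oxygen and purified by flow cytometry as CD45-/TER-119-/Sca-1+/CD140a+ cells, which the labels place at day 12. One group was kept in hypoxia (2% O2, with 5% CO2) and the other was shifted to normoxia (21% O2, with 5% CO2), with 2 ATAC-seq libraries in each group. ATAC-seq uses the Tn5 transposase, which inserts adapters where DNA is not covered by nucleosomes. Hypoxia here is the oxygen level close to that of the bone marrow, so the normoxia libraries are the shifted ones, and every fold is normoxia over hypoxia. The study describes the libraries of a group as biologically independent experiments, and the labels do not name the mice behind each.

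Distal open sites include enhancers, stretches of DNA that bind transcription factors and act on promoters over a distance, as well as insulators and the promoters of non-coding RNAs. Enhancers are as a rule more particular to a cell type than promoters. Many hold letters bound by AP-1, the family of FOS, JUN and ATF proteins that responds to growth factors and stress, and which site serves which gene cannot be read from position alone. A nearest gene is therefore given as a landmark and not as a target.

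The sites with the deepest reduction were spread over several chromosomes. The central 200 bases of the 4 normoxia-reduced peaks with the lowest ratio of the higher normoxia to the lower hypoxia value are printed from the forward strand of GRCm38 (mm10), because these sites set the extreme of the class. Capitals mark the AP-1 letters TGANTCA, in which N is any base, searched on both strands. Only the site near Bmpr1b, which encodes a BMP receptor, had them within the printed bases.
Steap3 intron, chr1:120254201-120254400: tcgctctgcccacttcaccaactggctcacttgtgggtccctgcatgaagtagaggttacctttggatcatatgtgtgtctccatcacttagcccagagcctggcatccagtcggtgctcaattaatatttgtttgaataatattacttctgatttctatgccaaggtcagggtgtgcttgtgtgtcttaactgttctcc
Beside Malat1, chr19:5792551-5792750: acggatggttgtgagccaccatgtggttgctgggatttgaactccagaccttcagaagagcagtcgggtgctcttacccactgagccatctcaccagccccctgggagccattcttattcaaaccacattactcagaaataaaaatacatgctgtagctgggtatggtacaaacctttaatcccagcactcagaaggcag
Upstream of Bmpr1b, chr3:142228851-142229050: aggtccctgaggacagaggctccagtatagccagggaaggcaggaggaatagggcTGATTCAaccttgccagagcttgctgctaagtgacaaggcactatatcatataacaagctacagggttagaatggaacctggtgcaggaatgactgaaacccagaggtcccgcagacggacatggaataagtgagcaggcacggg
Dgki intron, chr6:37143751-37143950: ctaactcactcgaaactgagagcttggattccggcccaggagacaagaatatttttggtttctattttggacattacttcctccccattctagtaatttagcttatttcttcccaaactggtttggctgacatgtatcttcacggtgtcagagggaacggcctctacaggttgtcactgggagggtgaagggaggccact

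AP-1 letters were among the sequences that were more frequent in normoxia-reduced than in comparison peaks, as described further on. Of the normoxia-reduced peaks of lowest ratio with such letters in their central 300 bases, 5 are therefore shown as windows of 41 bases around the letters. This set was chosen after the values were seen. The letters lay within 132 bp of the centre of the peak in all 5. Their closeness to the centre follows from the selection, which required them in the central 300 bases.
Bmpr1b, chr3:142228889-142228929: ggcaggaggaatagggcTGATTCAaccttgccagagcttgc
Crybg3, chr16:59547669-59547709: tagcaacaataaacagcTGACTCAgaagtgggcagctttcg
Ctnnb1, in a Ulk4 intron, chr9:121093916-121093956: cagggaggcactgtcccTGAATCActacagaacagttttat
Grik1, chr16:88187863-88187903: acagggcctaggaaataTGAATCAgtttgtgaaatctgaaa
Zfp36l1, in a Rad51b intron, chr12:79726316-79726356: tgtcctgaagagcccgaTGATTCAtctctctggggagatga

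The libraries held 26680936 to 29965523 reads, and the deposited signal equalled reads per 10000000 of the library total, not divided by peak width. Nuclear peaks took 49.2% and 53.2% of the reads in hypoxia and 31.0% and 35.2% in normoxia. That share moved with the oxygen group in every library, it enters the selection of the normoxia-reduced peaks because the rule reads the values as deposited, and its part in their reduction was not tested. When the libraries were scaled with relative log expression (RLE) factors instead, 36 peaks met the same rule, all of them among the 973, and with the total over all peaks set equal 1 peak met it. The class thus describes the sites with the largest reduction in reads per library, in a data set in which the median over all peaks was itself lower in normoxia by 0.44 on the log2 scale. The cells carried promoter peaks at 11 of 11 MSC markers, at mean values of 22.8 to 317 in hypoxia and 27.3 to 181 in normoxia. Of 12 blood cell markers 5 had a promoter peak, and Ptprc, Itgam and Cd3e had none. Of 6 endothelial markers 3 had one, and Cdh5 and Tie1 had none.

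The normoxia-reduced peaks had a median signal of 65.5 in hypoxia 1, 68.3 in hypoxia 2, 26.2 in normoxia 1 and 28.4 in normoxia 2. The comparison peaks had medians of 42.5 and 46.9 in hypoxia and of 30.4 and 33.7 in normoxia. Higher values in hypoxia and lower values in normoxia than in the comparison peaks follow from the selection, which read these 4 values. Together the 973 peaks took 0.944% and 1.01% of the reads in hypoxia and 0.373% and 0.419% in normoxia. Without the 2 broad peaks over Malat1 and Neat1 the shares were 0.840% and 0.895% against 0.339% and 0.371%.

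The median ratio of normoxia to hypoxia was 0.409 for the libraries numbered 1 and 0.420 for those numbered 2, which is near to the same reduction in both. Within a group, library 2 over library 1 had a median of 1.05 in hypoxia and 1.08 in normoxia over the same peaks. The ratio used by the rule, of the higher normoxia to the lower hypoxia value, ran from 0.287 to the limit of 0.5 with a median of 0.466, so most sites lay close to the limit and 100 of them were at or under 0.4. On the scale of log2(signal + 1) the difference of group means had a median of -1.25 and ran from -2.03 to -1.003. The same median was -0.53 in the comparison peaks, and was -1.21 in the 369 of 12996 strong promoter peaks (2.84%) that met the same value rule. These values were used by the rule or come from the same contrast and are given as a description. The median normoxia-reduced peak held 185 and 201 reads in hypoxia and 70 and 85 in normoxia, and the lowest count in any was 18.

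**Figure D1:**
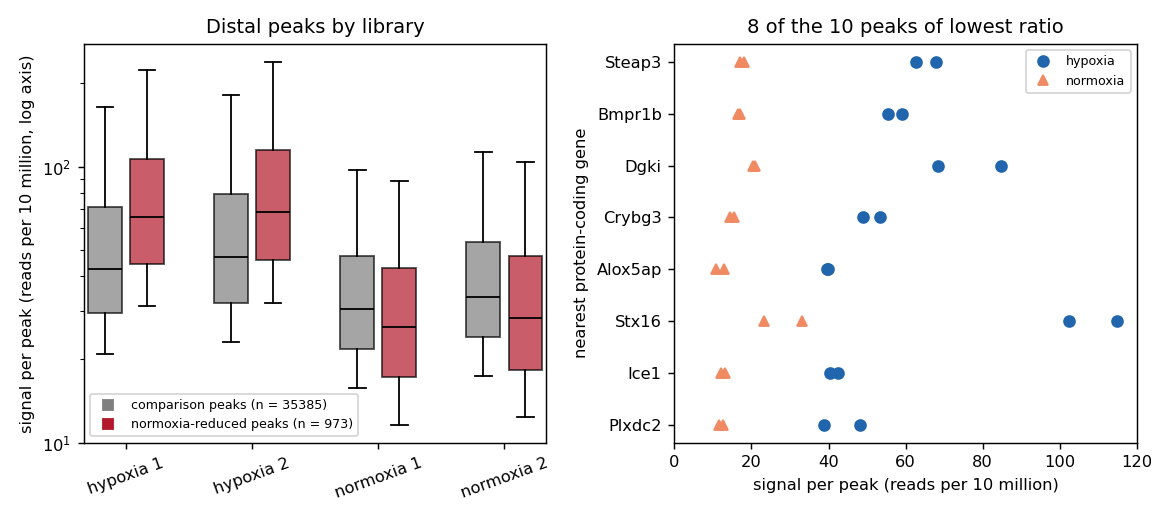
Left, signal per peak (reads per 10000000 of the library total, log axis) in each library for the 973 normoxia-reduced peaks (red) and the 35385 comparison peaks (grey), with boxes from the lower to the upper quartile, a line at the median and whiskers to the 5th and 95th percentiles. Right, the signal of 8 of the 10 normoxia-reduced peaks of lowest ratio in the hypoxia libraries (circles) and the normoxia libraries (triangles), named by the nearest protein-coding gene. The red medians are 65.5 and 68.3 in hypoxia and 26.2 and 28.4 in normoxia, and no circle on the right lies below a triangle of its row, which the selection fixed.

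**Figure D2:**
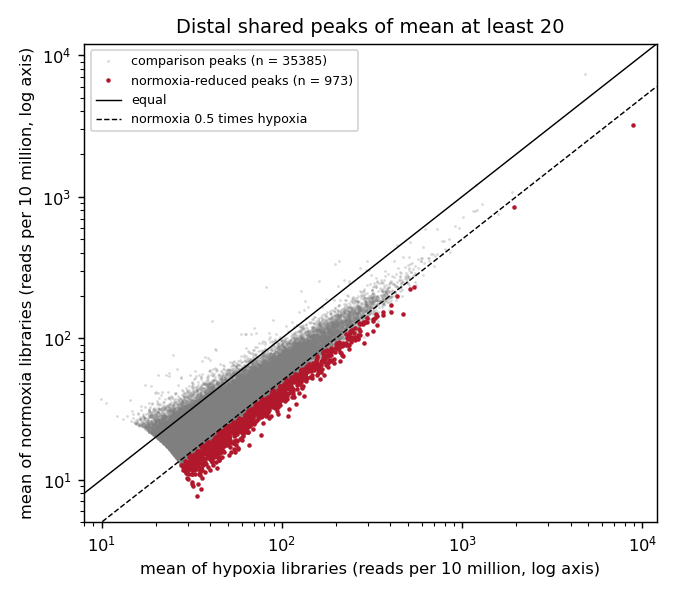
Mean signal of the normoxia libraries against mean signal of the hypoxia libraries (reads per 10000000, both axes log) for 36358 distal shared peaks, with normoxia-reduced peaks in red, comparison peaks in grey, a solid line at equal signal and a dashed line at 0.5 times. The red points run along the lower edge of one continuous cloud, and the 2 red points of highest signal are the peaks over Neat1 and Malat1.

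There was no gap in the data at the limit. The member just inside, 270457 bp from the start of Bnc2, had values of 184, 192, 91.8 and 76.4 in hypoxia 1, hypoxia 2, normoxia 1 and normoxia 2, in the order kept for every list of 4 values that follows. Just outside lay a peak near Pwwp2b with 119, 107, 34.9 and 53.7, whose normoxia libraries were further apart, and one near Tsc22d2 with 222, 236, 98.2 and 111. At a limit of 0.6 the number of peaks that met the rule was 4504.

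The deepest reduction was that of a 1200-bp peak at chr1:120253701-120254900 in an intron of Steap3, which encodes a ferrireductase of the iron uptake pathway. Its signal was 62.6, 68.0, 18 and 17, a mean of 65.3 ± 3.79 (SD, n = 2) in hypoxia and 17.5 ± 0.686 (SD, n = 2) in normoxia. It lay 10355 bp from the nearest protein-coding start, and the promoter peak of Steap3 was at 264, 282, 144 and 164. A 300-bp peak beside Malat1 at chr19:5792501-5792800, with 93.7% of its bases in repeats, had 31.8, 35.7, 9.37 and 6.01. It was the narrowest of all normoxia-reduced peaks, and with 90, 105, 25 and 18 reads it was also among the weakest.

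Next was an intergenic 700-bp peak at chr3:142228601-142229300, 59176 bp from the start of Bmpr1b, with 55.6, 59.2, 16.5 and 17.02. The promoter peak of Bmpr1b was much less reduced, at 76.8, 64.6, 49.5 and 46.7. A peak at chr6:37143101-37144600 in an intron of Dgki, a diacylglycerol kinase gene, had 68.3, 84.7, 21.0 and 20.4, whereas the weak promoter peak of Dgki was at 13.4, 11.2, 11.2 and 11.3. In both of these loci the groups were apart at the distal site, as the rule requires, and in Dgki the promoter values of the groups overlapped. The promoter peaks were not selected on the ratio, so the contrast of site and promoter is a description.

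The peaks in introns of Crybg3 (48.8, 53.4, 15.4 and 14.3) and of Alox5ap (39.6, 39.8, 12.7 and 10.7), which encodes the activating protein of 5-lipoxygenase, were of similar depth. The strongest of the 10 sites with the lowest ratio, at chr2:174007601-174009100 and 67208 bp from the start of the syntaxin gene Stx16, had 102, 115, 23.2 and 33.0. Others of the 10 lay in introns of Adamts16 (42.5, 40.5, 13.1 and 12.0) and of Plxdc2 (38.9, 48.3, 11.6 and 12.7). Of these 10 sites, 7 touched a peak that the caller had assigned to hypoxia alone.

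The normoxia-reduced peaks with the highest signal and the largest width lay over long non-coding RNA genes. Neat1 and Malat1 are transcribed into abundant nuclear RNAs, of which Neat1 builds the paraspeckles. A peak of 37000 bp at chr19:5815901-5852900 covered Neat1 and part of Frmd8 and had 8487, 9249, 2621 and 3849. The normoxia libraries differed more at this site than the hypoxia libraries, with means of 8868 ± 539 (SD, n = 2) in hypoxia and 3235 ± 869 (SD, n = 2) in normoxia. A peak of 18500 bp at chr19:5792901-5811400 covered Malat1 and had 1910, 1968, 801 and 893.

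Next came a peak of 14000 bp over Sdc4 and Rbpjl at chr2:164413401-164427400 (538, 545, 210 and 252), of which Sdc4 encodes a heparan sulfate proteoglycan of the cell surface. A peak at chr12:107750901-107758600, 244814 bp from the start of Bcl11b, a zinc-finger transcription factor gene, had 502, 521, 203 and 240, and a peak near B4galnt4 had 418, 452, 187 and 207. Among the widest were also a peak of 8700 bp near Atf7ip (375, 429, 165 and 179) and one of 8200 bp in Tnfaip2 (232, 227, 102 and 97.4). Such sites were exceptions, since 28 of the 973 (2.88%) were over 5 kb wide.

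Most normoxia-reduced peaks stood alone. With gaps of up to 10 kb allowed, 84 of them formed 39 chains of 2 or more and 889 had no other within that distance. The longest chain was that of Malat1 and Neat1, in which 5 peaks covered 57600 of 60400 bp with no comparison peak and 4 hypoxia-only peaks between them. Its peaks summed to 11001, 11921, 3627 and 4985. At Anxa1, the gene of the phospholipid-binding annexin A1, 3 peaks spanned 14900 bp with 683, 816, 244 and 254 in sum, and the normoxia libraries were nearly alike there. At Ntrk3, a neurotrophin receptor gene, 3 peaks spanned 14100 bp (272, 306, 90.0 and 106), and at the membrane protein gene Emp1 3 peaks spanned 13700 bp (362, 407, 135 and 132). A pair at the sorting receptor gene Sorl1 also spanned 14900 bp (176, 197, 70.8 and 65.4).

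In their distance from genes the normoxia-reduced peaks were close to the comparison peaks. The median gap to the nearest protein-coding start was 31397 bp, against 33646 bp, and ran from 1064 to 717739 bp. A gap of over 10 kb was found for 770 (79.1%, against 80.2%), of over 50 kb for 364 (37.4%, against 38.8%) and of over 100 kb for 190 (19.5%, against 21.6%). In genic place they differed more. Intergenic sequence held 434 of them (44.6%, against 38.8%), introns 349 (35.9%, against 39.9%) and exons of any annotated gene 190 (19.5%, against 21.3%). Within a protein-coding gene lay 419 (43.1%, against 51.5%). The intergenic share did not increase with the depth of the reduction. It was 39% at ratios of up to 0.4, 41.6% from 0.4 to 0.45 and 46.6% from 0.45 to 0.5, and it was 47.6% at ratios over 2. The share of distal peaks that met the rule ran from 1.97% on chromosome 4 to 3.49% on chromosome 17.

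The rule kept away from protein-coding starts alone, so other starts remained among the members. Within 1 kb of a start of any other transcript lay 111 (11.4%, against 10.7%), of which 31 belonged to non-coding transcripts of protein-coding genes, 28 to lincRNAs and 11 to processed pseudogenes. The peak at Snhg8, a host gene of small nucleolar RNA, had 351, 380, 135 and 171. The peak at Mir17hg, the host gene of the miR-17 cluster, had 344, 317, 121 and 156. A peak of 6600 bp over a start of a non-coding Fn1 transcript had 167, 198, 72.0 and 67.7, and Fn1 encodes fibronectin. The groups were apart at all of these, as the rule requires.

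Normoxia-reduced peaks were narrower and denser than the comparison peaks. Their median width was 1600 bp (quartiles 1200 and 2200 bp), against 1800 bp (1300 and 2700 bp), and 78 (8.02%, against 4.42%) were under 1 kb wide. Narrow peaks were not particular to them, since the median width was also 1500 bp at ratios from 1.5 to 2 and 1200 bp at ratios over 2. The mean signal per kb of width had a median of 29.2, against 21.7. When all 36358 peaks were put into 5 equal bins, the share that met the rule was 0.275% in the bin of lowest signal per kb and 5.18% in the highest. It was 4.04% in the narrowest bin and 1.62% in the widest, and 1.60% in the bin of lowest mean signal and 3.71% in the highest. Mean signal and signal per kb were part of what the rule read, so these shares are a description.

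Base composition, which the rule did not read, moved with the ratio as well. The normoxia-reduced peaks had a median G+C content of 47.6%, against 45.4%, and an observed-to-expected CpG ratio of 0.226, against 0.202. Both were far under those of the promoter peaks that met the value rule, at 51.8% and 0.516. The share of distal peaks that met the rule increased from bin to bin of G+C content, from 1.004% to 4.18%. Across the 36358 peaks, Spearman's rho of the ratio was -0.22 with G+C content, -0.32 with signal per kb and -0.09 with width, over peaks that share the same 4 libraries. When each library was centred within 50 bins of G+C content, 135 peaks met the rule, of which 131 were among the 973. This centring also removes the difference between whole libraries, as does RLE scaling, with which 36 peaks met the rule. The count of 135 therefore does not separate base composition from that difference. Repeats covered a median of 14.7% of the bases, against 15.4%.

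**Figure D3:**
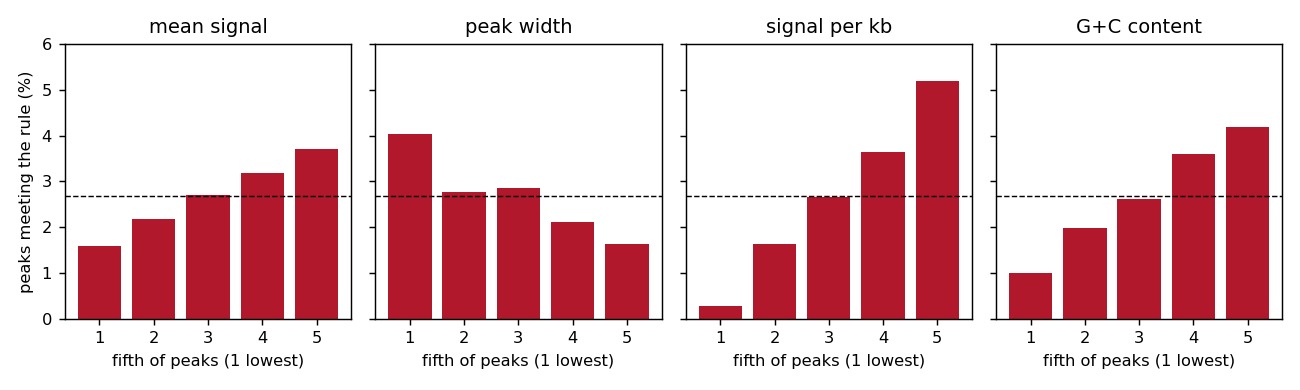
Percent of the 36358 distal shared peaks that met the rule, in 5 equal bins of mean signal, peak width, signal per kb and G+C content (bin 1 is the lowest), with the share over all peaks, 2.68%, as a dashed line. The bars climb from 0.275% to 5.18% with signal per kb and from 1.004% to 4.18% with G+C content, and go down from 4.04% to 1.62% with width.

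Normoxia-reduced peaks often bordered sites that the caller had assigned to hypoxia alone. Of the 973, 322 (33.1%) touched a hypoxia-only peak, against 4102 of the comparison peaks (11.6%) and 123 of the 369 promoter peaks that met the value rule (33.3%). The share with one within 1 kb was 53.0% at ratios of up to 0.4, 36.9% from 0.4 to 0.45 and 29.2% from 0.45 to 0.5, and it went on down to 5.53% at ratios from 1 to 1.5. The caller's assignment was made from the same 4 libraries, so it does not count as a second measurement. The 647 members with no hypoxia-only peak within 1 kb had a median width of 1700 bp and a median G+C content of 47.7%, against 1500 bp and 47.5% in the 326 with one.

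Of 18 sets of letters searched on both strands in the central 300 bases of each peak, AP-1 letters (TGANTCA) were held by 272 of the 973 normoxia-reduced peaks (28.0%, 95% Wilson interval 25.2% to 30.9%). They were held by 20.7% of the comparison peaks, 23.5% of all autosomal shared distal peaks and 6.78% of the 369 promoter peaks that met the value rule. The interval treats peaks as independent, which neighbouring sites are not. Within 3 equal bins of G+C content the shares were 38.1% against 25.4% in the lowest, 27.3% against 20.1% in the middle and 24.9% against 16.5% in the highest, so AP-1 letters were the more frequent in the normoxia-reduced peaks at each level of base composition. Peaks that held them were narrower, with a median of 1300 bp against 1700 bp, and lay further from genes, with a median gap of 44278.5 bp against 26779 bp. Of the 272, 51 held AP-1 letters more than once.

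AP-1 letters were concentrated at the centre of the sites. In the 100 bp just before the centre there were 13.7 per 100 normoxia-reduced peaks and 8.43 per 100 comparison peaks, and in the 100 bp just after it 10.7 and 8.55, whereas 900 to 1000 bp upstream there were 3.49 and 3.50. In the central 500 bases 40.4% held them, against 30.3%, and over the whole peak 71.1%, against 68.3%. The share with AP-1 letters was 34.0% in the 100 peaks at ratios of up to 0.4, 24.9% from 0.4 to 0.45, 28.1% from 0.45 to 0.5, 24.5% from 0.5 to 0.6, 18.8% from 1 to 1.5 and 12.9% from 1.5 to 2. Among the 973 there was thus no even slope with the ratio.

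The letters GGGCGG of Sp and KLF proteins, zinc-finger factors of G+C-rich promoters, were held by 13.3% of the normoxia-reduced peaks, against 5.85% of the comparison peaks and 5.37% of all autosomal shared distal peaks. The shares were 19.4% against 11.2% in the bin of highest G+C content and 10.2% against 4.65% in the middle bin. In the lowest bin they were 1.19% against 1.79%, from 2 normoxia-reduced peaks. The letters ACGTG, the core of the response element of hypoxia-inducible factors, were held by 17.5%, against 14.3% of the comparison peaks and 14.1% of all distal peaks. By bins of G+C content this difference was 21.4% against 11.8% in the lowest, 17.1% against 14.6% in the middle and 16.3% against 16.4% in the highest. The E-box CAGCTG of Twist and Tcf factors was held by 21.5%, against 16.9% and 17.4% of all distal peaks.

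Other letters were less frequent in the normoxia-reduced peaks. GATA letters (AGATAA) were held by 8.94%, against 13.5% of the comparison peaks and 13.3% of all distal peaks, and Sox letters (AACAAT) by 11.0%, against 15.3% and 16.0%. TEAD letters (GGAATG), bound by the partners of YAP, were held by 18.6%, against 22.1% and 23.0%. RUNX letters (TGTGGT), of which RUNX2 is the master factor of bone formation, were held by 24.3%, against 26.8% and 28.4%. In each of the 3 bins of G+C content the shares of these 4 were also lower than in the comparison peaks. C/EBP letters (TTGCNNAA) were held by 13.8%, against 16.3% and 17.04%, but by bins of G+C content the shares were 12.5% against 20.4% in the lowest, 17.8% against 16.4% in the middle and 11.6% against 12.1% in the highest. TEAD letters became more frequent at the other end of the ratio, with 37.2% of the 145 peaks at ratios over 2.

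The shares of the remaining letters are given for normoxia-reduced, comparison and all distal peaks in that order. They were 19.4%, 18.99% and 18.9% for ETS (GGAAGT), 12.5%, 12.7% and 13.0% for NRF2 (TGACNNNGC), 6.78%, 7.40% and 7.41% for homeobox factors (TAATTA), and 4.01%, 4.16% and 4.02% for the E-box CACGTG. Rarer ones were STAT (TTCCNGGAA) with 1.85%, 1.43% and 1.42%, the CTCF core with 1.34%, 1.54% and 2.66%, NF-kB with 1.23%, 1.29% and 1.21%, and the cyclic AMP element TGACGTCA with 0.103%, 0.348% and 0.342%. NFI letters were in 0 of the 973, 0.0509% and 0.0407%. AP-1 and NRF2 letters can share bases, and 52 of the 122 members with NRF2 letters also held AP-1 letters. CACGTG contains ACGTG. A match of letters is not evidence of binding.

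**Figure D4:**
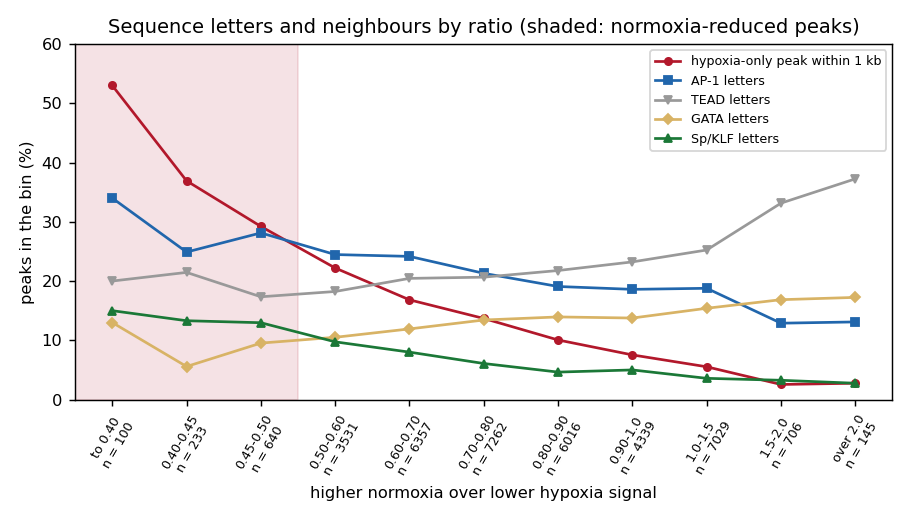
Percent of distal peaks with AP-1, TEAD, GATA or Sp/KLF letters in the central 300 bases, and with a hypoxia-only peak within 1 kb, in bins of the higher normoxia over the lower hypoxia signal, with the number of peaks under each bin and the normoxia-reduced peaks shaded. The share beside a hypoxia-only peak goes down from 53.0% in the first bin, AP-1 from 34.0% and Sp/KLF from 15%, while TEAD reaches 37.2% in the last.

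**Figure D5:**
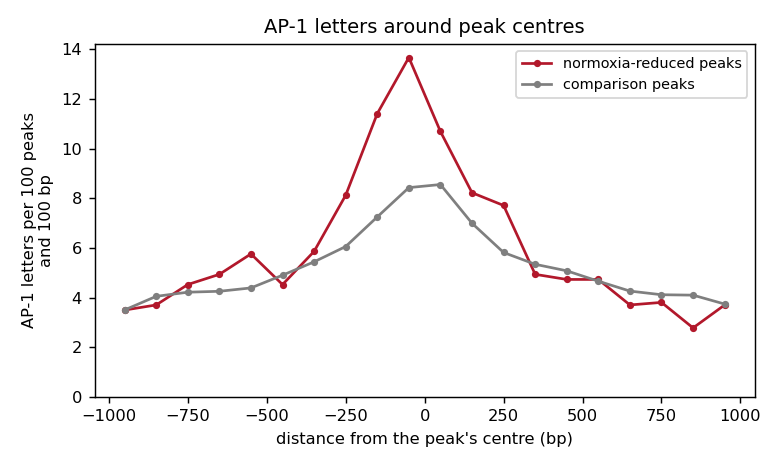
AP-1 letters per 100 peaks in steps of 100 bp around the peak's centre, for normoxia-reduced peaks (red) and comparison peaks (grey). The lines are apart at the centre, at 13.7 against 8.43 in the step before it and 10.7 against 8.55 in the step after it, and run together at 1000 bp.

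The 973 peaks had 819 different nearest protein-coding genes. Of these genes 702 were nearest to 1 normoxia-reduced peak, 90 to 2, 19 to 3, 7 to 4 and 1 to 6. The gene with 6 was Sulf1, which encodes a sulfatase that trims heparan sulfate at the cell surface, where 6 of 30 strong distal peaks met the rule. They lay from 180677 bp upstream to the gene body, and the strongest had 224, 251, 94.1 and 111. Genes with 4 included the actin-linked adaptor gene Baiap2 (of 7 strong distal peaks), Anxa1 (of 13), Gm11077 (of 15), Phlda1 (of 16), Smad7 (of 20), an inhibitor of TGF-beta signalling, and Ntrk3 (of 22). Of 4 strong distal peaks at Sirpa, the receptor of CD47, 3 met the rule, and of 5 at Itgb3, an integrin gene, 3.

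At Baiap2 all 4 sites were intronic and touched hypoxia-only peaks. The strongest, of 7000 bp, had 218, 234, 78.7 and 99.1, and the deepest, beside it, had 101, 89.8, 27.7 and 30.0. The promoter peak of Baiap2 was at 229, 249.5, 132 and 124, also lower in both normoxia libraries and less so. At Itgb3 an intronic peak had 153, 174, 46.8 and 55.7, and the promoter peak 124.9, 138, 74.2 and 78.1. At Sirpa the strongest site had 269, 292, 117 and 134 and the promoter peak 231, 254, 90.0 and 117, so the promoter there was reduced to a similar extent.

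The distal sites were selected for their reduction and the promoters of their nearest genes were not. A smaller reduction at these promoters therefore follows from the selection. Among peaks that did not meet the ratio limit, promoter peaks of mean at least 20 had a median log2 difference of -0.75, against -0.53 in the comparison peaks. Of the 819 genes, 734 had an autosomal promoter peak within 1 kb of a start, with a median log2 difference of -0.87 (quartiles -0.997 and -0.68), and 35 (4.77%) of these promoter peaks met the same ratio limit. In the 7649 genes with a promoter peak that were nearest to a comparison peak and to no normoxia-reduced peak, the median was -0.76 and 2.99% met it. Neighbouring distal sites differed in the same direction: the 3167 comparison peaks within 50 kb of a normoxia-reduced peak had a median log2 difference of -0.64, and the 32218 further away -0.52. These values come from the contrast that chose the sites and carry no test.

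Gene lists of the pathways of bone MSCs were read for normoxia-reduced peaks whose nearest or overlapped gene was listed, beside the 2.68% over all strong distal peaks. At osteogenic genes 2 of 78 strong distal peaks (2.56%) met the rule. One of them lay 19614 bp from Col1a2, which encodes a chain of type I collagen, with 61.6, 66.3, 28.5 and 30.7.

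At chondrogenic genes 6 of 73 (8.22%) met the rule, all of them outside the gene bodies. A peak 159724 bp upstream of Sox9, the master factor of cartilage, had 117, 124, 44.6 and 48.1, and one 218577 bp on its other side had 39.99, 43.2, 17.2 and 16.0. The promoter peak of Sox9 was at 163, 161, 90.7 and 85.1. The matrix gene Comp had a peak 2458 bp from its start with 59.1, 67.3, 26.2 and 25.7, and Sox5, Sox6 and the lubricin gene Prg4 had 1 each, between 51.3 and 98.9 in hypoxia and between 24.7 and 42.7 in normoxia.

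At genes of the BMP and TGF-beta pathways 8 of 181 (4.42%) met the rule. These were 3 near Bmpr1b, 4 near Smad7 and 1 near Tgfbr2, which encodes a TGF-beta receptor and where the values were 47.1, 56.1, 22.9 and 21.4. The Smad7 sites at 63625, 91625 and 154625 bp from its start lay within another gene, Ctif. The Bmpr1b site at 111023 bp lay in an intron of Unc5c. The second Bmpr1b site, of 500 bp, lay just beside the first and had 44.6, 44.2, 14.6 and 21.0. At Wnt genes 5 of 161 (3.11%) met it. The deepest lay in an intron of Ulk4 with Ctnnb1, the gene of beta-catenin, as its nearest start, and had 53.1, 50.7, 14.6 and 16.7. The secreted Wnt antagonist gene Sfrp2 had one with 58.4, 57.5, 22.1 and 24.4, the receptor gene Fzd7 had 2 and Dkk2, which encodes another secreted modulator, had 1.

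At collagen and matrix genes 7 of 201 (3.48%) met the rule, of which 2 lay in Fn1, 2 beside Col12a1 and 1 each near Col4a1, Col5a1 and Fbn1. The one beside Col5a1 had 130, 126, 60.7 and 57.4. Among AP-1 genes 3 of 43 (6.98%) met it. A peak of 4400 bp 52679 bp from Jun had 229, 227, 84.0 and 99.4, and the promoter peak of Jun was at 905, 938, 434 and 541. Batf had an intronic site with 108, 98.9, 40.9 and 47.4. A peak 4962 bp from a start of Atf3, outside any protein-coding gene, had 124.9, 118, 52.8 and 57.4. At YAP target and matricellular genes 3 of 81 (3.70%) met it, near Amotl2 (54.5, 63.2, 21.4 and 17.4), Thbs1 (118, 126, 53.6 and 53.4) and Tead1 (95.5, 85.7, 42.0 and 40.7). At actin and SRF genes 2 of 39 (5.13%) met it, both near the fibronectin receptor gene Itga5, the deeper with 138, 133, 48.3 and 51.4.

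Hypoxia response genes had 1 of 79 (1.27%). It lay 58300 bp from Pfkfb3, a regulator of glycolysis, with 61.9, 78.9, 29.2 and 28.0, and the Pfkfb3 promoter peak was at 335, 383, 143 and 191. Adipogenic genes had 1 of 87 (1.15%), in an intron of Zfp423 with 83.2, 83.3, 31.9 and 36.4. Niche factor genes had 1 of 63 (1.59%), 346177 bp from the angiopoietin gene Angpt1 with 90.2, 116, 36.0 and 43.0. Among genes of acetyl-CoA and citrate handling 1 of 11 (9.09%) met the rule, in an intron of Acss1, the mitochondrial acetyl-CoA synthetase, with 49.9, 61.9, 17.6 and 17.4, and the promoter peak of Acss1 was at 60.2, 56.8, 26.2 and 28.0. The lists hold few strong peaks, and peaks of 1 gene are not independent of each other.

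Marker genes were read in the same way. MSC markers had 2 of 64 (3.12%), both near Nt5e, which encodes CD73, at 65.5, 68.3, 29.2 and 22.7 and at 47.8, 61.2, 21.7 and 20.4. Blood cell markers had 0 of 25. Endothelial markers had 3 of 30, all with Cdh5 as the nearest start at 77625 to 517825 bp, in cells with no promoter peak at Cdh5, and the strongest had 191, 230, 62.6 and 74.8.

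Tested over all 128055 peaks with limma on log2(signal + 1) after RLE scaling (two-sided, Benjamini-Hochberg FDR under 0.01), 801 of the 973 normoxia-reduced peaks (82.3%) were called lower in normoxia, where 5857 peaks (4.57%) were called lower overall. With the values as deposited all 973 were called lower, where 30729 peaks (24%) were. The selection used this contrast, so nothing is read from either count. The 172 members not called after RLE scaling had an adjusted limma p of up to 0.0759.

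How far the ratio carried over between libraries was described by selecting on fewer of them. The peaks were called on all 4 libraries and the rule read all 4, so these values are no independent support for the 973. When peaks were selected by the same rule on hypoxia 1 and normoxia 1 alone, 4593 of 34828 qualified, and in hypoxia 2 and normoxia 2 they had a median ratio of 0.532, against 0.705 in the peaks not selected. Of the selected peaks 38.2% were again at or under 0.5, against 6.43% of the rest. Selected on hypoxia 2 and normoxia 2, 3956 of 37946 qualified, with a median ratio of 0.512 in hypoxia 1 and normoxia 1, against 0.702. There 45.9% were again at or under 0.5, against 8.92% of the rest. With the normoxia numbers exchanged, 64.9% of the 1950 peaks selected on hypoxia 1 and normoxia 2 and 15.3% of the 8402 selected on hypoxia 2 and normoxia 1 were again at or under 0.5, against 20.4% and 2.43% of the rest.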

How the data were processed

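ATAC-seq was done in 4 libraries, 2 of hypoxia- and 2 of normoxia-cultured MSCs. As the methods describe, the authors aligned reads to mm10 with bowtie2, removed duplicates with Picard and called one peak set with chromstaR in differential mode. The deposited values, called RPKM by the authors, are a signal: in every library 100% of them were whole reads times 10000000 over the library total (largest deviation from a whole number 1.16e-09), and these were recovered as read counts. Precision is limited by 2 libraries a group, and intervals cover counting error only.

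Peaks were placed on GENCODE M21 and sequences taken from RefSeq GRCm38.p6 (mm10 coordinates). All peaks were tested with limma 3.58.1 in R 4.3.3 (trend, robust) on log2(value + 1) after RLE scaling, a pseudocount of 1, FDR under 0.01, with edgeR 4.0.16 on the recovered reads as an alternative. The limma step was checked on simulated data. Medians, shares and motif counts were computed with Python 3.11.15 and pandas 2.3.3.

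The rule, its members, the gene lists and the motifs were chosen with earlier results of these data known. Named are the 10 members of lowest ratio, the 5 of highest mean, the 5 widest, those nearest the limit, the longest chains, the genes with most members and up to 4 examples for each list. The central sequences of the 4 members of highest mean were read but are not printed. Some items that these rules select are not reported here.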

Additional observations from a re-analysis of the deposited data

How the results depend on the processing

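The number of peaks meeting the rule depended most on scaling. It was 973 as deposited, 36 with RLE size factors, 1 with equal totals over all peaks and 135 when centred within bins of G+C content. It was 100 and 4504 at ratio limits of 0.4 and 0.6, and 463 at a mean of at least 50. Leaving out 1 library gave 1200 to 4101, namely 2791 without hypoxia 1, 1611 without normoxia 1 and 4101 without normoxia 2. The median log2 ratio of the members was -1.25, and -0.78 with RLE factors, -1.14 with a pseudocount of 5 and between -1.29 and -1.18 with 1 library left out. Their median width was 1600 bp, but 1250 bp for the 36 peaks and 2100 bp at a mean of at least 50. Their G+C content ran from 45.8% to 47.9% when 1 library was left out. AP-1 letters were held by 28.0%, 25% of the 36 peaks, 40.4% in 500 bases and 71.1% over whole peaks.

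Peaks called lower and higher over the whole table numbered 5857 and 2266 after RLE scaling. They were 30729 and 501 as deposited, 1072 and 8757 with equal totals, and 1681 and 1819 with cyclic loess. edgeR on the deposited values called 674 higher, and on the recovered reads it called 7296 lower and 3257 higher. With 1 library left out limma called 0 to 8138 lower and 0 to 1548 higher, with 0 without hypoxia 1 and 0 without hypoxia 2, where 24119 and 24290 peaks had an unadjusted p under 0.05, and 1455 higher without normoxia 1.

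The labels do not say whether libraries of the same replicate number are a pair. The libraries' deviations from the group means had a correlation of 0.011 over all peaks and 0.0611 over those of mean at least 20. A low correlation over peaks cannot decide whether such libraries came from the same cells, so the block is given as an alternative. With the replicate block the rule was met by 1797 peaks, and 8471 were called lower and 3913 higher, while 16716 were called lower and 2315 higher with the block and a G+C correction together. Of the 70 ratios of single named peaks under these alternatives, 51 stayed within the spread and 19 moved further, those under RLE factors and a pseudocount of 5. None changed sign, but these peaks were selected for the lowest ratios, so their sign says nothing about robustness. The replicate block cannot move such a ratio, because each group holds both replicate numbers, so its values were the same by construction.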
